A study of Mus musculus with 24 samples.

Results

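The 10 genes described here, *Kirrel2*, *Kirrel3*, *Nrp1*, *Nrp2*, *Plxna1*, *Sema3a*, *Sema3f*, *Pcdh10*, *Efna5* and *Epha5*, encode molecules that sort and guide the axons of olfactory sensory neurons (OSNs). They were picked by symbol from the 45706 genes of the table, but with earlier results of these data known. The study had already reported lower *Kirrel2* in *iRhom2-/-* mice. All 10 genes were found and tested. Bulk RNAseq was made from the main olfactory epithelium of 12 *WT* and 12 *iRhom2-/-* mice, untreated, of mixed strain, 3 mice per genotype at each of 5, 8, 10 and 30 weeks of age. Of the 24 mice 21 were labelled male and 3 female, the females being *WT* mouse 3 of 8 weeks and mouse 3 of each genotype at 10 weeks. The *iRhom2-/-* mice carried the Rhbdf2 tm1b allele on a mixed background, an allele in which the endogenous *iRhom2* promoter drives LacZ, so the gene was disrupted in all cells and not in OSNs alone. The table names the mouse for each library of 8 and 10 weeks. The remaining 12 libraries, 6 per genotype, could be tied to a genotype but not to 1 of the ages 5 and 30 weeks, and they were compared as 1 set of 5 or 30 weeks.

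Each mature OSN expresses 1 odorant receptor, and axons of OSNs with the same receptor converge on shared glomeruli in the olfactory bulb. Neuronal activity sets the levels of adhesion molecules such as Kirrel2 and Kirrel3, which occur in complementary sets of glomeruli and hold like axons together. The basal cAMP signal of the receptor sets Nrp1, Sema3a and Plxna1 along the front to back axis of the bulb, whereas Nrp2 and the repellent Sema3f act along the dorsal to ventral axis. Ephrins and Eph receptors such as Efna5 and Epha5 repel one another between neighbouring axons, and Pcdh10, a protocadherin, is another adhesion molecule of OSN axons.

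The sequences before the RefSeq starts of *Pcdh10* and *Kirrel2* are shown because these were the members with the lowest fold changes over all libraries and both are linked to activity or cAMP. The windows are the 250 bases before the RefSeq start in GRCm38.p6, for *Pcdh10* chr3:45378148-45378397 on the plus strand and for *Kirrel2* chr7:30457516-30457765 on the minus strand. The RefSeq start of *Kirrel2* lies within the gene as GENCODE annotates it, so 175 bases of its window are inside the GENCODE gene, whereas none of the *Pcdh10* window is. Among the other windows searched, 32 bases of that of *Nrp2* and all 250 of those of *Nrp1* and *Sema3a* are inside the GENCODE gene. Capitals mark the half-site of the cAMP response element, TGACG, searched on both strands.
Pcdh10: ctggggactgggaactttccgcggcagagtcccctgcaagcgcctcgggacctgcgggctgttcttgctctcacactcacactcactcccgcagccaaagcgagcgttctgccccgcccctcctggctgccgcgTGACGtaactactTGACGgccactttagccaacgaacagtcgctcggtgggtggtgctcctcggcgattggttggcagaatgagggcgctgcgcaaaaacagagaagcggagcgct
Kirrel2: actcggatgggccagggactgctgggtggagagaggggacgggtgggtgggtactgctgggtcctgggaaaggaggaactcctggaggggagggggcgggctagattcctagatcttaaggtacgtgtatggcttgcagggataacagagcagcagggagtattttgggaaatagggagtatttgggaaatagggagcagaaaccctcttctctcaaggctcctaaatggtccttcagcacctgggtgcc
The *Pcdh10* window holds 2 half-sites, which begin 116 and 103 bases before the start, and the *Kirrel2* window holds none. Of 7 members with a window, *Pcdh10* was the one with a half-site, and 17.8% of 32851 such windows over all genes hold at least 1. The full element TGACGTCA, every copy of which includes the half-site, was in none of the 7 windows and in 1.55% of all. Likewise the EBF motif was in no member window and in 0.779% of all windows. The homeodomain motif TAATTA was in the *Epha5* window alone among the 7, 230 bases before the start, and in 4.84% of all windows. A match of letters is a description and does not show that a factor binds there.

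Totals ranged from 25333822 to 48660394 counts per library, and the least expressed member, *Sema3a*, had at least 336 counts in every library. The labels give 3 core reference numbers, which separate the mice of 8 weeks, those of 10 weeks and those of 5 and 30 weeks. They do not say what the number stands for. Differences between these sets in age and in core reference cannot be told apart. *Rhbdf2*, which encodes iRhom2, was at 19.3 to 24.95 CPM (counts scaled to library size, with TMM factors) in *WT* and 7.19 to 13.4 CPM in *iRhom2-/-* libraries, with no overlap in any set (log2 fold change -1.08, SE 0.087, adjusted p = 9.78e-08). A few libraries stood apart. The gland gene *Bpifb9b* took 13.6% of the counts in *iRhom2-/-* mouse 2 of 10 weeks and 5.53% in *WT* mouse 1 of 8 weeks. Among the libraries of 5 or 30 weeks, *Gap43*, the immature OSN marker, was at 62.8 to 67.3 CPM in 3 *WT* libraries and at 144 to 222 CPM in the other 3. It was at 48.2 to 75.6 CPM in 3 *iRhom2-/-* libraries and at 198 to 247 CPM in the other 3. *Omp*, the mature OSN marker, was at 3692 CPM or more in all 24 libraries, so the defining marker of the labelled tissue was present throughout.

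Genotypes were compared with edgeR's quasi-likelihood test, and a gene was called at an adjusted p under 0.1 over all genes tested. Over the 24 libraries 1 of the 10 members was called, *Pcdh10*, which fell in *iRhom2-/-* mice, where 1.97% of 20763 genes were called in either direction, 1.12% higher and 0.852% lower. At 8 weeks 2 members were called, *Kirrel3* and *Efna5*, both higher in *iRhom2-/-* mice (4.98% of 19335 genes were called, 3.24% higher and 1.74% lower). At 10 weeks no member was called (0.197% of 18764 genes, 0.0853% higher and 0.112% lower), and DESeq2 called none either. There 3 members had an unadjusted p under 0.05, beside 7.79% of all genes. At 5 or 30 weeks *Pcdh10* was called again, and lower (1.07% of 18481 genes were called, 0.649% higher and 0.422% lower). The median log2 fold change of the 10 members was 0.05 over the 24 libraries, -0.06 at 8 weeks, -0.23 at 10 weeks and 0.10 at 5 or 30 weeks, beside medians of all genes from -0.0023 to 0.0071. The median size of the change, regardless of sign, was 0.134 for the members and 0.095 for all genes over the 24 libraries.

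**Figure D1:**
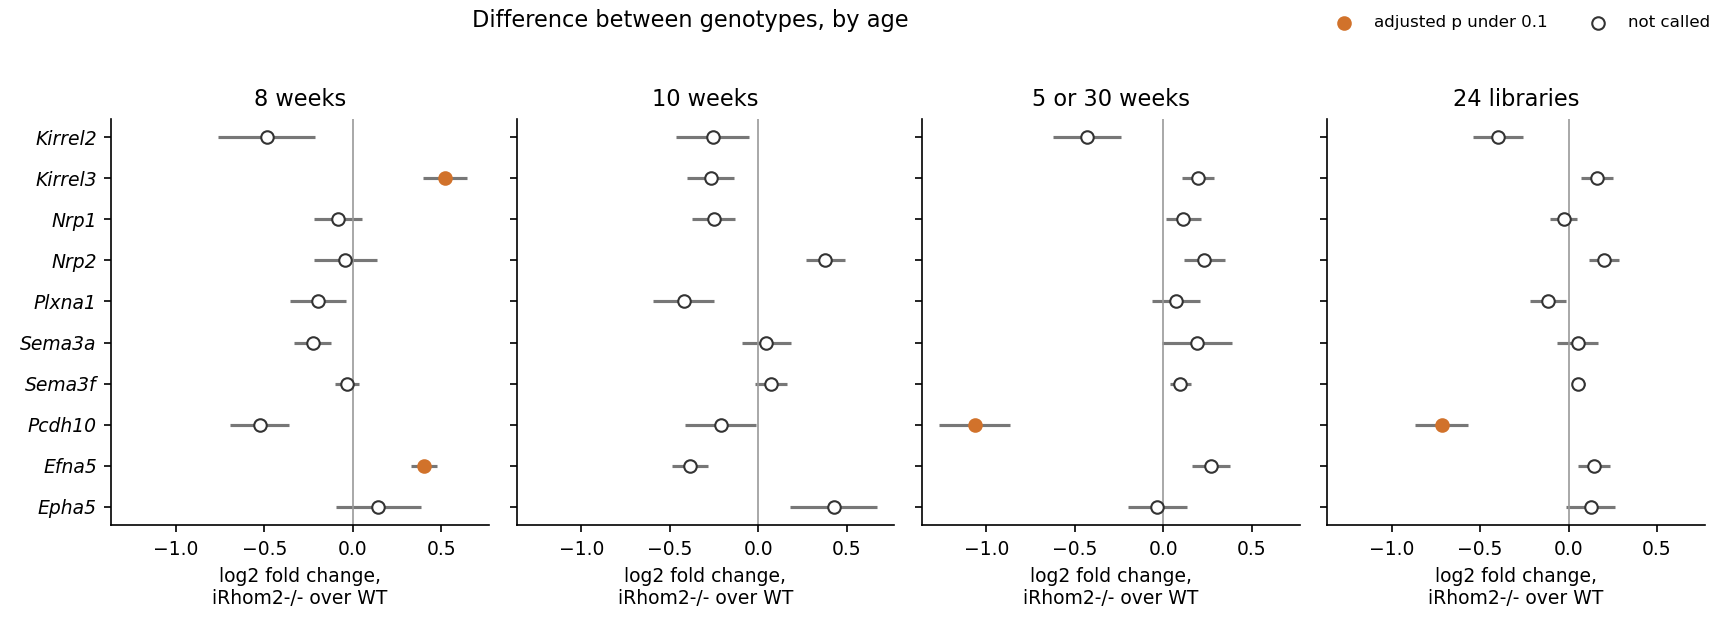
Log2 fold change of each member, *iRhom2-/-* over *WT* (x axis), at 8 weeks, 10 weeks, 5 or 30 weeks and over 24 libraries, with bars for 1 standard error; filled points passed an adjusted p under 0.1. *Pcdh10* and *Kirrel2* lie left of 0 in every panel, and *Kirrel3* and *Efna5* lie right of 0 at 8 weeks and left of 0 at 10 weeks.

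Per kilobase of exon, the members spanned a wide range in *WT* mice. *Kirrel2* was highest, with a median of 271 CPM per kb (range 171 to 475), and *Plxna1* followed with 30.0 (15.9 to 39.0). The ranges of neither overlapped with that of any other member. *Efna5* (median 9.51), *Sema3f* (9.34) and *Nrp2* (9.32) could not be ordered, because their ranges across *WT* libraries overlapped. The same held for *Nrp1* (6.50), *Kirrel3* (6.23), *Pcdh10* (5.88) and *Epha5* (3.68), each of which overlapped with its neighbours in that order. *Sema3a* was lowest, with 1.19 CPM per kb (0.824 to 1.82), below every *WT* value of the others.

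**Figure D2:**
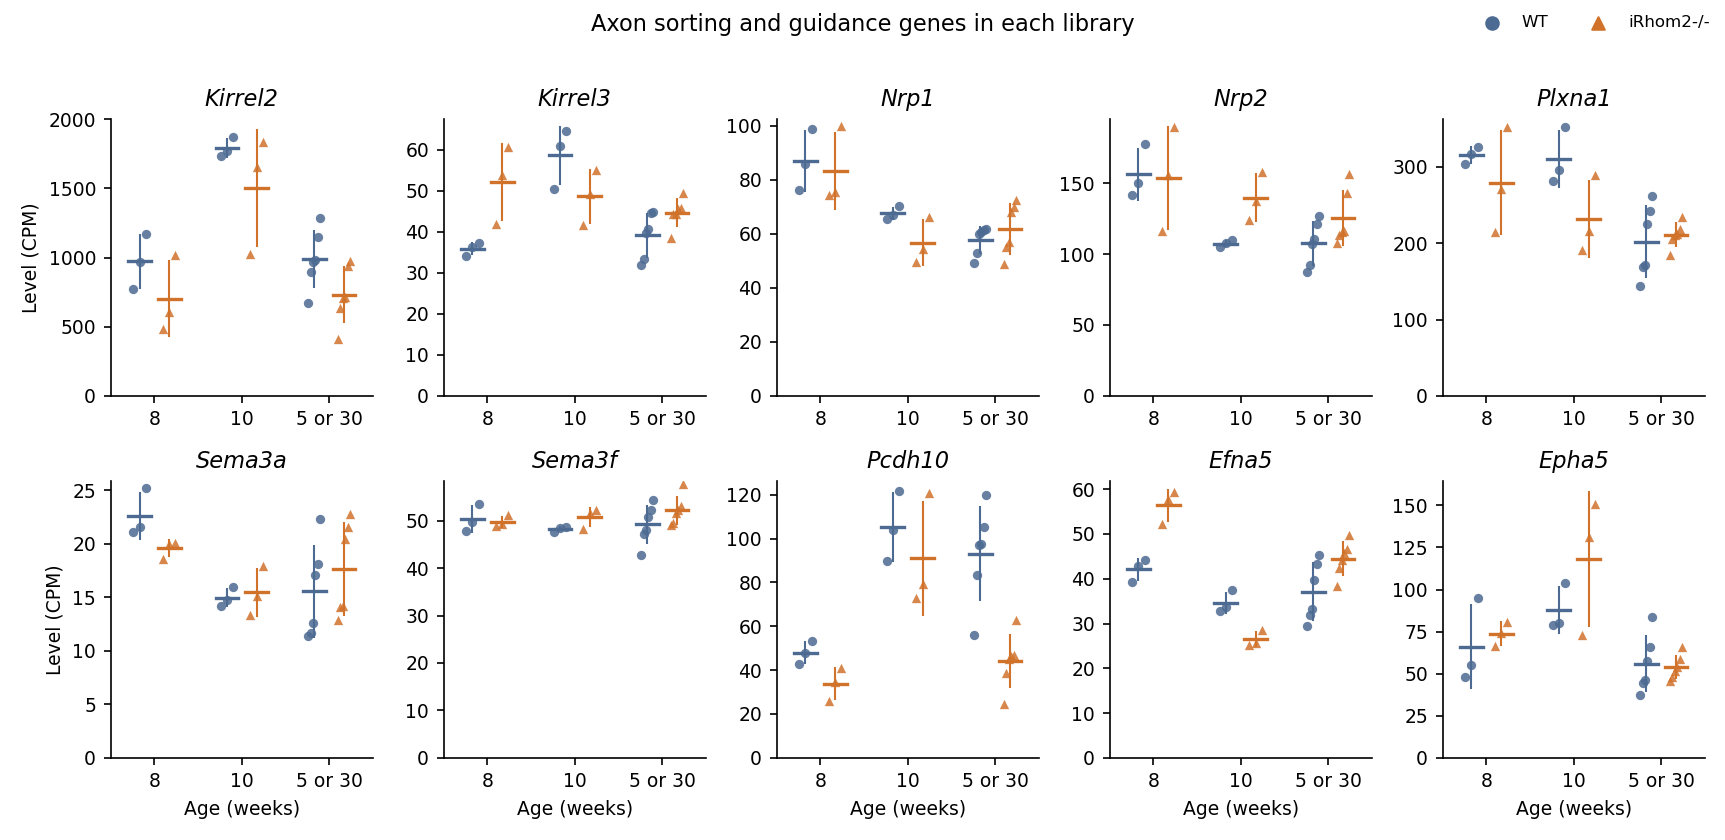
Level of each member in CPM (y axis, from 0) in every library by age in weeks, with *WT* as circles and *iRhom2-/-* as triangles; horizontal bars are group means and vertical bars are SD (n = 3, 3 and 6 per genotype). *Pcdh10* at 5 or 30 weeks lies at 56.2 to 119.7 CPM in *WT* and 24.8 to 62.9 CPM in *iRhom2-/-* libraries, and the *Efna5* groups are apart in opposite directions at 8 and 10 weeks.

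*Pcdh10* (ENSMUSG00000049100, chromosome 3 of GRCm38, 45378398 to 45435623, plus strand) was the member that fell most. At 8 weeks it was at 53.3, 42.8 and 48.0 CPM in *WT* mice 1 to 3 and at 34.5, 25.9 and 41.1 CPM in *iRhom2-/-* mice 1 to 3. In mice of 10 weeks it was at 89.7, 121.6 and 104 CPM in *WT* mice and at 121, 72.8 and 79.2 CPM in *iRhom2-/-* mice. Of the libraries of 5 or 30 weeks, the 6 *WT* ranged from 56.2 to 119.7 CPM (median 97.3) and the 6 *iRhom2-/-* libraries from 24.8 to 62.9 CPM (median 45.7). The groups were apart at 8 weeks, overlapped at 10 weeks through *iRhom2-/-* mouse 1, and overlapped at 5 or 30 weeks through the highest *iRhom2-/-* and the lowest *WT* library. Across all 24 libraries *Pcdh10* fell by 39.2% (log2 fold change -0.72, SE 0.15, adjusted p = 0.0164), and 11 of 12 *iRhom2-/-* libraries lay below the *WT* mean of their set. In the set of 5 or 30 weeks it fell by 52.2%, with all 6 *iRhom2-/-* libraries below the *WT* mean (log2 fold change -1.07, SE 0.20, adjusted p = 0.0488). The differences at 8 weeks (log2 fold change -0.53, SE 0.17, adjusted p = 0.151) and 10 weeks (-0.21, SE 0.20, adjusted p = 0.87) did not pass, and with the 12 libraries of these ages alone, an alternative chosen after seeing the data, the value was -0.36 (adjusted p = 0.375). DESeq2 called *Pcdh10* at 8 weeks (log2 fold change -0.54, adjusted p = 0.0274), and the value at 10 weeks was -0.48 without *iRhom2-/-* mouse 1 and -0.09 without *WT* mouse 2 or *iRhom2-/-* mouse 2. Without the library set as a term the call over the 24 ended, with a log2 fold change of -0.67 (adjusted p = 0.314). Without any 1 library the call over the 24 held (log2 fold change -0.80 to -0.64), whereas the call at 5 or 30 weeks ended at an adjusted p of 0.102 to 0.108 without *WT* library 7 or 9 or *iRhom2-/-* library 8, 11 or 12 of the table.

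Neurons of the olfactory bulb also express *Pcdh10*, and traces of bulb differed between the groups. *Gad1*, a marker of bulb interneurons, was at 3.06 to 60.4 CPM in the *WT* and 0.562 to 26.6 CPM in the *iRhom2-/-* libraries of 5 or 30 weeks, where all 6 bulb and brain markers were lower (0 called, median log2 fold change -0.64). *Slc17a7*, a marker of its projection neurons, was at 2.21 to 30.6 and 1.49 to 16.1 CPM there. The list of 6 does not follow bulb alone. In the *iRhom2-/-* mice of 10 weeks *Gad1* was at 0.31 to 0.419 CPM, with *Snap25* of the list at 240 to 300 CPM and *Cdhr1* at 114 to 145 CPM. With the mean log2 level of *Th*, *Slc17a7* and *Gad1* as a covariate, *Pcdh10* stayed lower over the 24 libraries (log2 fold change -0.63, adjusted p = 0.0678). With the mean of 10 mature OSN markers as a covariate it was -0.70 (adjusted p = 0.0207). Both covariates were chosen after the data were seen. In bulk tissue, fewer cells of a type and less RNA per cell cannot be told apart.

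*Kirrel2* (ENSMUSG00000036915, chromosome 7, 30447534 to 30457690, minus strand), an adhesion molecule whose level rises with OSN activity, was lower in *iRhom2-/-* mice in each set but did not pass over all genes. At 8 weeks it was at 776, 1173 and 967 CPM in *WT* mice 1 to 3 and at 609.7, 483 and 1015 CPM in *iRhom2-/-* mice 1 to 3. At 10 weeks it was at 1734, 1768 and 1872 CPM in *WT* and at 1653, 1023 and 1832 CPM in *iRhom2-/-* mice, the 1023 CPM being the mouse with much *Bpifb9b*. At 5 or 30 weeks *WT* libraries ranged from 672 to 1285 CPM (median 975.5) and *iRhom2-/-* libraries from 414 to 972 CPM (median 710.3). The groups overlapped in all 3 sets, although all 6 *iRhom2-/-* libraries of 5 or 30 weeks and 10 of 12 overall lay below the *WT* mean of their set. The log2 fold change over the 24 libraries was -0.40 (SE 0.14, unadjusted p = 0.00891, adjusted p = 0.206), and DESeq2 gave an adjusted p of 0.0914 with the same size. At 8 weeks it was -0.49 (SE 0.28), at 10 weeks -0.26 (SE 0.21) and at 5 or 30 weeks -0.43 (SE 0.19), with adjusted p-values of 0.369, 0.842 and 0.338. At 8 weeks it was -0.85 without *iRhom2-/-* mouse 3 and -0.28 without *iRhom2-/-* mouse 2, and at 10 weeks it was -0.42 without *iRhom2-/-* mouse 3 and -0.05 without *iRhom2-/-* mouse 2.

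*Kirrel3* (ENSMUSG00000032036, chromosome 9, 34485894 to 35036716, plus strand), found in glomeruli with little Kirrel2, rose at 8 weeks. It was at 34.1, 37.2 and 36.4 CPM in *WT* mice 1 to 3 and at 42.0, 53.9 and 60.7 CPM in *iRhom2-/-* mice 1 to 3 of that age, so the groups did not overlap. At 10 weeks it was at 60.9, 50.5 and 64.5 CPM in *WT* and at 49.4, 41.6 and 55.0 CPM in *iRhom2-/-* mice, and the groups overlapped. *WT* libraries of 5 or 30 weeks ranged from 31.9 to 44.9 CPM (median 40.2) and *iRhom2-/-* libraries from 38.4 to 49.5 CPM (median 45.1), again with overlap. The log2 fold change of *Kirrel3* was 0.52 at 8 weeks (SE 0.12, adjusted p = 0.0848), -0.27 at 10 weeks (SE 0.13, adjusted p = 0.718) and 0.20 at 5 or 30 weeks (SE 0.092, adjusted p = 0.353). Over the 24 libraries it was 0.16 (SE 0.090, adjusted p = 0.498). The call at 8 weeks rested on single libraries and was kept without *iRhom2-/-* mouse 1 alone (log2 fold change 0.40 to 0.64 over the 6 fits with 1 mouse removed).

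The complementary pair was also compared as a ratio within each library, which does not depend on library scaling. The log2 ratio of *Kirrel2* over *Kirrel3* was 4.51 to 4.98 in *WT* and 3.16 to 4.06 in *iRhom2-/-* mice at 8 weeks, with no overlap. It was 4.83 to 5.13 and 4.62 to 5.06 at 10 weeks, and 4.32 to 4.94 and 3.18 to 4.40 at 5 or 30 weeks, where the groups overlapped. Across the 24 libraries the ratio was lower in *iRhom2-/-* mice by 0.60 on the log2 scale, a ratio change of -34.0% (two-sided exact permutation test within sets, p = 5.79e-04, adjusted p = 0.0029 over 5 pairs). Within sets the difference was -1.04 at 8 weeks (exact p = 0.1, the smallest p that 3 against 3 allows), -0.03 at 10 weeks (exact p = 0.8) and -0.66 at 5 or 30 weeks (exact p = 0.00866). Whether the difference itself varied between sets was not tested.

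**Figure D3:**
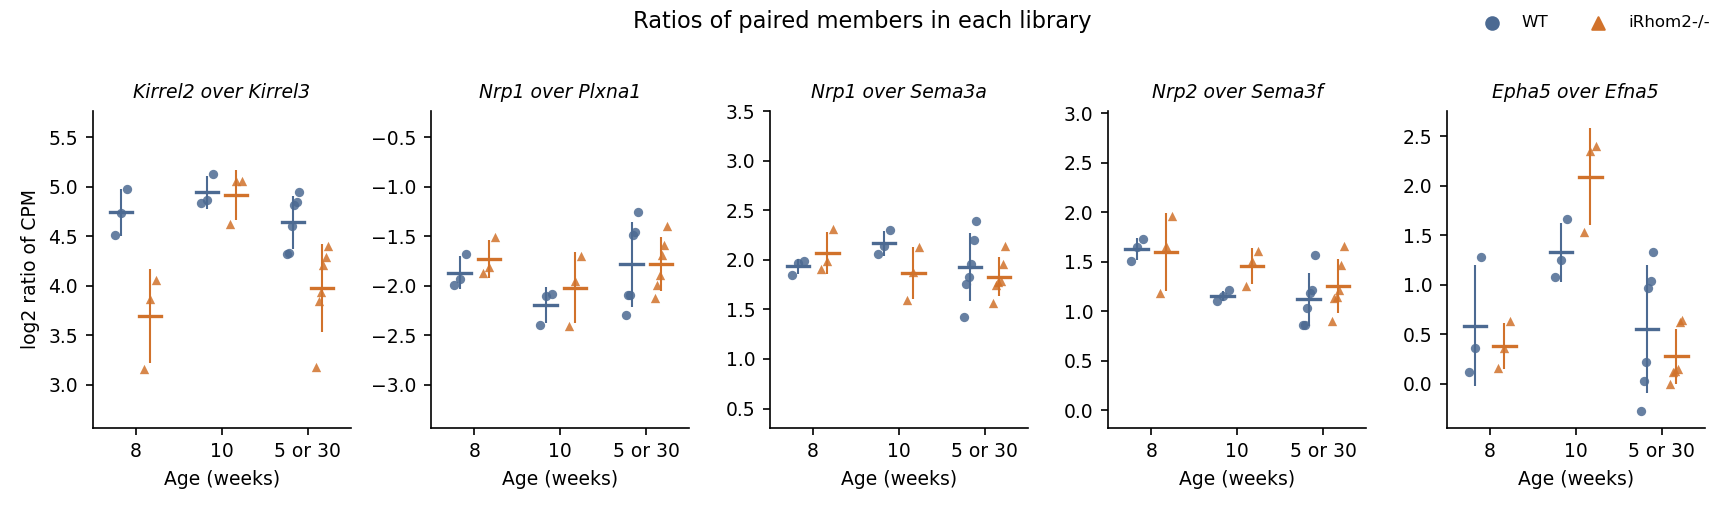
Log2 ratio of CPM between paired members (y axis, the same span in each panel) in every library by age in weeks, with *WT* as circles and *iRhom2-/-* as triangles; horizontal bars are group means and vertical bars are SD. *Kirrel2* over *Kirrel3* lies at 3.16 to 4.06 in the *iRhom2-/-* mice of 8 weeks, below the *WT* range of 4.51 to 4.98, and the groups overlap at 10 weeks.

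The axon guidance receptors and ligands of the cAMP axis differed less. *Nrp1* (ENSMUSG00000025810, chromosome 8, 128358604 to 128503363), the receptor that binds Sema3a, was at 49.3 to 98.8 CPM in *WT* and 48.7 to 100 CPM in *iRhom2-/-* libraries. Its log2 fold change over the 24 libraries was -0.03 (SE 0.077, adjusted p = 0.937), between -0.25 at 10 weeks and 0.11 at 5 or 30 weeks. *Plxna1* (ENSMUSG00000030084, chromosome 6, 89316314 to 89362620), the signalling partner of the neuropilins, was at 144 to 353 CPM in *WT* and 185 to 352 CPM in *iRhom2-/-* libraries. In mice of 10 weeks it was at 296, 353 and 282 CPM in *WT* mice 1 to 3 and at 289.6, 191 and 216 CPM in *iRhom2-/-* mice 1 to 3, where *iRhom2-/-* mouse 1 lay within the *WT* range. That was a log2 fold change of -0.42 (SE 0.17, unadjusted p = 0.0412, adjusted p = 0.623), beside -0.12 over the 24 libraries (adjusted p = 0.717), or -0.08 without *iRhom2-/-* mouse 2 of 10 weeks. *Sema3a* (ENSMUSG00000028883, chromosome 5, 13125414 to 13602565), the secreted repellent, was at 25.2, 21.1 and 21.6 CPM in *WT* mice and at 20.01, 18.6 and 20.1 CPM in *iRhom2-/-* mice 1 to 3 of 8 weeks. These groups did not overlap, with a log2 fold change of -0.23 (SE 0.10, adjusted p = 0.276; -0.14 without *WT* mouse 1), but the values at 10 weeks (0.05) and 5 or 30 weeks (0.19, SE 0.20) had the other sign and did not pass.

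The libraries of 5 or 30 weeks fell into 2 clusters for *Sema3a* as for *Gap43*. The 3 *WT* libraries with high *Gap43* had 17.1 to 22.4 CPM of *Sema3a* and the other 3 had 11.4 to 12.6 CPM. The 3 *iRhom2-/-* libraries with high *Gap43* had 20.4 to 22.8 CPM and the other 3 had 12.9 to 14.2 CPM. The spread of *Sema3a* within each genotype was therefore wider than the difference between genotypes.

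*Nrp2* (ENSMUSG00000025969, chromosome 1, 62703285 to 62818695), the receptor for Sema3f, was higher at 10 weeks in each *iRhom2-/-* mouse than in any *WT* mouse. It was at 105, 110.1 and 108 CPM in *WT* mice 1 to 3 and at 158, 124 and 137 CPM in *iRhom2-/-* mice 1 to 3 (log2 fold change 0.38, SE 0.11, unadjusted p = 0.00918, adjusted p = 0.459). All 6 fibroblast markers were higher in the *iRhom2-/-* mice of that age too (0 called, median 0.57, summed level 3139 to 3622 CPM in *WT* and 4556 to 6129 CPM in *iRhom2-/-*), and their part in the *Nrp2* result was not tested. At 5 or 30 weeks *WT* libraries ranged from 87.1 to 127 CPM and *iRhom2-/-* libraries from 108 to 156 CPM, and all 6 *iRhom2-/-* libraries lay above the *WT* mean (log2 fold change 0.23, SE 0.12, adjusted p = 0.391). At 8 weeks the groups overlapped (log2 fold change -0.04, SE 0.18, adjusted p = 0.921). The log2 fold change of all 24 libraries was 0.20 (SE 0.086, unadjusted p = 0.0283, adjusted p = 0.327), and with the mature OSN markers as a covariate it was 0.24 (adjusted p = 0.0649). That covariate and the scalings that follow were chosen after the data were seen. Scaled to the mean log2 level of those markers, *Nrp2* was higher by 0.13 (exact permutation within sets, p = 0.444). Scaled to the immature OSN markers, *Nrp2* was higher by 0.003 (exact p = 0.981), against 0.19 unscaled (exact p = 0.0456). *Sema3f* (ENSMUSG00000034684, chromosome 9, 107681500 to 107710475), its repellent ligand, had the smallest SE of the members, at 42.7 to 54.3 CPM in *WT* and 48.3 to 57.7 CPM in *iRhom2-/-* libraries (log2 fold change 0.06, SE 0.039, adjusted p = 0.624). The ratio of *Nrp2* over *Sema3f* differed by 0.14 on the log2 scale (exact permutation p = 0.192), that of *Nrp1* over *Plxna1* by 0.08 (p = 0.52) and that of *Nrp1* over *Sema3a* by -0.09 (p = 0.375), with adjusted p-values of 0.48 to 0.65 over 5 pairs.

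*Efna5* (ENSMUSG00000048915, chromosome 17, 62604184 to 62881317, minus strand), a membrane-anchored ephrin that acts as a repellent ligand, had opposite differences at 8 and 10 weeks. It was at 44.3, 39.2 and 42.9 CPM in *WT* mice 1 to 3 and at 52.2, 57.7 and 59.3 CPM in *iRhom2-/-* mice 1 to 3 of 8 weeks. In mice of 10 weeks it was at 33.6, 32.9 and 37.4 CPM in *WT* and at 28.5, 25.2 and 25.7 CPM in *iRhom2-/-* mice. The groups were apart at both ages, higher in *iRhom2-/-* mice at 8 weeks and lower at 10 weeks. *Efna5* rose by 32.1% at 8 weeks (log2 fold change 0.40, SE 0.074, adjusted p = 0.0532), and the value at 10 weeks was -0.39 (SE 0.10, unadjusted p = 0.00523, adjusted p = 0.433). The call at 8 weeks was kept in 2 of 6 fits with 1 mouse removed, those without *WT* mouse 1 and without *iRhom2-/-* mouse 1 (log2 fold change 0.35 to 0.44 over the 6). At 5 or 30 weeks *WT* libraries ranged from 29.4 to 45.3 CPM (median 36.5) and *iRhom2-/-* libraries from 38.3 to 49.7 CPM (median 45.0), with overlap (log2 fold change 0.27, SE 0.11, adjusted p = 0.292). In that set *Efna5* also split with *Gap43*. The 3 *WT* libraries with high *Gap43* had 29.4 to 33.2 CPM of *Efna5* and the other 3 had 39.7 to 45.3 CPM. The 3 *iRhom2-/-* libraries with high *Gap43* had 38.3 to 44.15 CPM and the other 3 had 45.8 to 49.7 CPM. Over the 24 libraries the log2 fold change of *Efna5* was 0.14 (SE 0.089, adjusted p = 0.568).

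*Epha5* (ENSMUSG00000029245, chromosome 5, 84054761 to 84417382, minus strand), a receptor for ephrins of this class, varied widely between mice of a group. At 10 weeks it was at 80.0, 104 and 79.1 CPM in *WT* mice 1 to 3 and at 151, 73.1 and 131 CPM in *iRhom2-/-* mice 1 to 3 (log2 fold change 0.43, SE 0.25, adjusted p = 0.765). The value was 0.21 without *iRhom2-/-* mouse 1 and 0.67 without *iRhom2-/-* mouse 2. The groups overlapped there, at 8 weeks (0.14, SE 0.24) and at 5 or 30 weeks (-0.03, SE 0.17). The ratio of *Epha5* over *Efna5* did not differ detectably over the 24 libraries (difference 0.002 on the log2 scale, exact permutation p = 0.993).

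Without overlap between genotypes there were 4 members at 8 weeks, *Pcdh10* and *Sema3a* lower and *Kirrel3* and *Efna5* higher, beside 26.8% of 18992 genes. At 10 weeks there were 2, *Nrp2* higher and *Efna5* lower, beside 13.2% of 18472 genes, and at 5 or 30 weeks none, beside 1.66% of 18224 genes. Whether the effect of genotype varied between the 3 sets was tested with an interaction term over all genes. *Efna5* had an unadjusted p of 3.91e-04 (adjusted p = 0.186), *Kirrel3* of 0.00204 (adjusted p = 0.225) and *Pcdh10* of 0.0336 (adjusted p = 0.358), and no member passed, where 0.0482% of 20763 genes did. For the other 7 members the unadjusted p was 0.153 to 0.841.

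Some marker lists differed in the same sense as *Kirrel3* and *Efna5* at 8 and 10 weeks, and others in the opposite sense. At 8 weeks 9 of 10 mature OSN markers were higher in *iRhom2-/-* mice (3 called, median log2 fold change 0.49, summed level 9455 to 11910 CPM in *WT* and 13950 to 17720 CPM in *iRhom2-/-*). Of 8 markers of ensheathing glia and Schwann cells 7 were higher (1 called, median 0.34, summed level 321 to 381 and 421 to 463 CPM). So were all 6 bulb and brain markers (1 called, median 0.70), a list that does not follow bulb alone. Beside these calls, 3.24% of all genes were called higher at 8 weeks. At 10 weeks 9 of the 10 mature OSN markers (median -0.18), all 8 glia markers (median -0.57) and 5 of the 6 bulb and brain markers (median -1.17) were lower, with 0 called. All 5 sustentacular markers were likewise higher at 8 weeks (median 0.22) and lower at 10 weeks (-0.215), with 0 called. In the opposite sense, all 6 fibroblast markers (median -0.27), all 5 erythrocyte markers (-0.49) and all 7 macrophage markers (-0.665) were lower at 8 weeks. At 10 weeks all 6 fibroblast markers (0.57), all 5 erythrocyte markers (1.16) and 6 of the 7 macrophage markers (0.13) were higher, with 0 called at either age. Of the 8 immature OSN markers 6 were higher at 8 weeks (3 called, median 0.14) and all 8 at 10 weeks (0 called, median 0.24). No marker of these lists was at 0 in all libraries. Relative to the mean log2 level of the mature OSN markers, the difference at 8 weeks was 0.09 for *Kirrel3*, against 0.52 without that reference, and -0.015 for *Efna5*, against 0.42. Relative to the immature OSN markers, the differences at 8 weeks were 0.32 for *Kirrel3* and 0.22 for *Efna5*. At 10 weeks, relative to the mature OSN markers, they were -0.12 and -0.24, against -0.27 and -0.387 without a reference. Relative to the immature OSN markers they were larger at 10 weeks, -0.544 for *Kirrel3* and -0.661 for *Efna5*. At 5 or 30 weeks they were 0.22 and 0.295 relative to the mature markers, and 0.056 and 0.134 relative to the immature ones. Relative to the mature OSN markers *Pcdh10* was lower over the 24 libraries by 0.80 on the log2 scale (exact permutation within sets, p = 6.17e-04) and *Kirrel2* by 0.50 (exact p = 0.0109), against 0.74 and 0.44 without the reference. These scalings were chosen after the data were seen. With all 24 libraries, the 8 immature OSN markers were higher (1 called, median 0.16), beside 1.12% of all genes called higher. All 7 macrophage markers (median -0.27) and all 6 lymphocyte markers (median -0.77) were lower with 0 called. The part of these lists in the results was not tested.

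Co-variation of the 5 pairs was to be tested over all 24 libraries, after the mean of each set and genotype was taken out. There 3 pairs passed, *Nrp1* with *Sema3a* (Pearson r = 0.59, permutation p = 0.00266, adjusted p = 0.0133, Spearman rho = 0.61), *Epha5* with *Efna5* (r = -0.52, p = 0.00866, adjusted p = 0.0216, rho = -0.56) and *Kirrel2* with *Kirrel3* (r = 0.47, p = 0.0227, adjusted p = 0.0378, rho = 0.52). Without the 2 libraries farthest from the median, r was 0.59, -0.48 and 0.50. All permutations of a correlation, here and below, crossed sets and genotypes. They did not allow for the means taken out, so the p-values may be too small. The libraries of 5 or 30 weeks fell into clusters, so the pairs were also taken over the 12 libraries of 8 and 10 weeks, a restriction chosen after the data were seen. *Kirrel2* and *Kirrel3* varied together (Pearson r = 0.63, permutation p = 0.0298, Spearman rho = 0.64, p = 0.0303), but the adjusted p over 5 pairs was 0.149, and without the 2 mice farthest from the median r was 0.37. For *Nrp1* with *Plxna1* r was 0.45, for *Nrp1* with *Sema3a* 0.41, for *Nrp2* with *Sema3f* -0.06 and for *Epha5* with *Efna5* -0.24, with permutation p-values of 0.146 to 0.858. In these 12 libraries none of the 5 relations passed after adjustment. Of the 3 that passed over 24 libraries, r lay nearer 0 for *Nrp1* with *Sema3a* and *Epha5* with *Efna5*. For *Kirrel2* with *Kirrel3* r was larger, and fewer libraries alone can raise a p-value.

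The genes whose pattern was most like that of each member, by r over the 24 libraries with set and genotype means taken out among 16146 genes, are given as a description. *Kirrel2* was most like *Trim45* (r = 0.87) and *Asic1* (0.82), and *Kirrel3* like *Tmem186* (0.81) and *Rgs6* (0.78). *Pcdh10* had the least close partners, *Anks1b* and *Eri1* (both 0.74). *Sema3a* was most like *Atp8b4* and *Dpysl3* (both 0.96), the second of which is an immature OSN marker, and *Nrp2* like *P4ha3* (0.94) and *Olfml2b* (0.92). *Plxna1* was most like *Synj2* (0.92) and *Lmtk2* (0.91), *Efna5* like *Aplp2* (0.90) and *Clgn* (0.885), and *Epha5* like *Ksr2* (0.89) and *Srsf6* (0.77). *Nrp1* was most like *Esam* (0.83) and *Fbln2* (0.825), and *Sema3f* like *Lmo2* (0.85) and *Pkp3* (0.81). These values share the libraries and the clusters of 5 or 30 weeks.

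Other genes of these pathways came from a list of 99 semaphorins, plexins, ephrins, Eph receptors, protocadherins, slits, netrins, their receptors and related adhesion molecules, of which 92 were tested over the 24 libraries. There 61 were higher and 31 lower, beside 49.7% of all genes higher, and 3 were called, all higher in *iRhom2-/-* mice, beside 1.12% of all genes called higher. *Efna3*, an ephrin of the same class as *Efna5*, rose from 185 ± 36.9 to 243 ± 38.6 CPM (SD, n = 12; log2 fold change 0.40, SE 0.10, adjusted p = 0.047). *Unc5b* and *Unc5d*, receptors for netrins, had log2 fold changes of 0.21 (SE 0.057, adjusted p = 0.0681) and 0.64 (SE 0.18, adjusted p = 0.0896), *Unc5d* at no more than 1.59 CPM in any library. The median log2 fold change of the list was 0.06.

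At 8 weeks 46 of 92 lay above 0 and 46 below. Of the 92, 4 were called higher and 3 lower, beside 3.24% and 1.74% of all genes. The protocadherins *Pcdh1* (log2 fold change 0.39, SE 0.058, adjusted p = 0.0328) and *Pcdh8* (0.50, adjusted p = 0.0901), the semaphorin *Sema6c* (0.44, SE 0.071, adjusted p = 0.0409) and *Efna3* (0.79, SE 0.13, adjusted p = 0.0409) were the higher ones. *Sema5a* fell by 0.60 on the log2 scale (SE 0.12, adjusted p = 0.0687) and the Eph receptor gene *Epha7* by 0.95 (SE 0.24, adjusted p = 0.0951). *Cntn6*, a contactin, was at 0.228 to 0.682 CPM in *WT* and at no more than 0.0211 CPM in *iRhom2-/-* mice (adjusted p = 0.0458). At 10 weeks 43 of 91 lay above 0 and 48 below, and none was called. The smallest p-values there belonged to the Eph receptor gene *Epha3* (log2 fold change 0.87, adjusted p = 0.436) and *Slit3* (0.59, adjusted p = 0.437) among higher genes, and to *Pcdh8* (-0.74, adjusted p = 0.318) among lower ones.

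In the set of 5 or 30 weeks 70 of 91 lay above 0 (median 0.14 on the log2 scale), beside 49.7% of all genes, and 6 were called, all higher, beside 0.649% of all genes called higher. These were *Dscaml1* (log2 fold change 0.35, SE 0.070, adjusted p = 0.0569), *Ephb2* (0.37, SE 0.078, adjusted p = 0.0705), *Robo1*, a receptor for slits (0.28, SE 0.060, adjusted p = 0.0705), *Pcdh7* (0.23, SE 0.052, adjusted p = 0.0806), *Pcdh17* (0.34, SE 0.079, adjusted p = 0.0859) and the adhesion molecule *Ncam1* (0.31, adjusted p = 0.0909). *Pcdh17* was at 46.4 to 62.3 CPM in *WT* and 61.7 to 73.9 CPM in *iRhom2-/-* libraries, so 2 protocadherins rose in the set in which *Pcdh10* fell. Of the 8 other plexins all 8 were higher there, with 0 called and a median of 0.21. At 8 weeks 3 plexins were higher and 5 lower, and at 10 weeks 1 was higher and 7 lower. Of 6 genes that make or relay cAMP in OSNs, 2 were called at 8 weeks, both higher, the channel subunit *Cnga2* (log2 fold change 0.53, SE 0.13, adjusted p = 0.0848) and the kinase *Prkaca* (0.35, SE 0.055, adjusted p = 0.0394), and 0 in the other comparisons. At 8 weeks 3.24% of all genes were called higher. *Cnga2*, *Adcy3* and *Gnal* are also among the 10 mature OSN markers, of which 9 were higher at 8 weeks, so the lists are not independent.

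*Kirrel2* belongs with *S100a5*, *Dlg2*, *Pcp4l1* and *Lrrc3b* to the activity-linked genes of OSNs that the study named, so their direction is not independent evidence. All 4 were called lower at 5 or 30 weeks, beside 0.422% of all genes called lower. There *Kirrel2* had a log2 fold change of -0.43 and did not pass. *S100a5*, a calcium-binding protein gene, was at 787.5 to 1245 CPM in *WT* and 542 to 772 CPM in *iRhom2-/-* libraries, without overlap (log2 fold change -0.63, SE 0.13, adjusted p = 0.056). *Dlg2*, a synaptic scaffold gene, was at 70.3 to 118 CPM and 49.4 to 68.1 CPM, also without overlap (log2 fold change -0.62, SE 0.12, adjusted p = 0.0537). *Pcp4l1* (log2 fold change -0.43, SE 0.082, adjusted p = 0.0507) and *Lrrc3b* (-0.66, SE 0.13, adjusted p = 0.056) fell as well. In this set 1.66% of 18224 genes had groups without overlap. At 8 weeks 3 of the 4 were higher and 1 lower, and at 10 weeks 1 was higher and 3 lower, with 0 called at either age. Across the 24, *Dlg2* was called (log2 fold change -0.68, SE 0.14, adjusted p = 0.014) and lay below the *WT* mean of its set in 12 of 12 *iRhom2-/-* libraries, as *Pcdh10* did in 11 of 12. In the *iRhom2-/-* mice of 8 weeks, *S100a5* was at 741 to 858 CPM beside 404 to 895 CPM in *WT*, and *Kirrel2* was at 483 to 1015 CPM beside 776 to 1173 CPM.

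**Figure D4:**
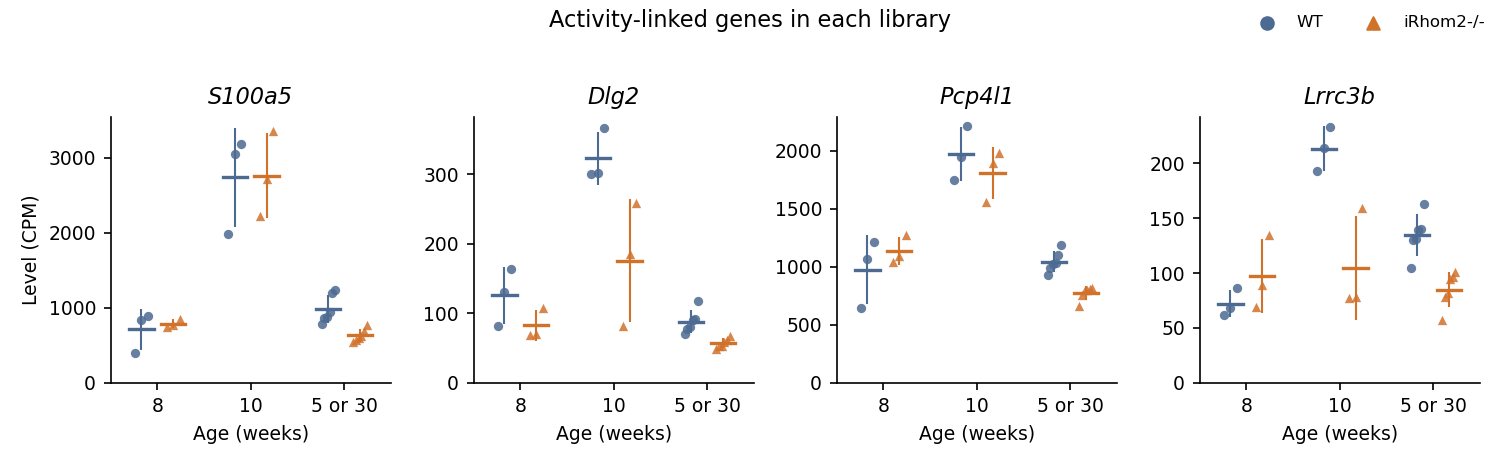
Level in CPM (y axis, from 0) of 4 activity-linked genes in every library by age in weeks, with *WT* as circles and *iRhom2-/-* as triangles; horizontal bars are group means and vertical bars are SD. *S100a5*, *Dlg2*, *Pcp4l1* and *Lrrc3b* are all lower in the 6 *iRhom2-/-* libraries of 5 or 30 weeks, and *S100a5* overlaps between genotypes at 8 and 10 weeks.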

How the data were processed

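Sequencing libraries were directional and poly(A)-selected, per the labels. Reads had been mapped to GRCm38 with STAR within nf-core, and the deposited values are the authors' RSEM estimated counts in whole numbers, not normalized. Columns with the authors' own log2 fold changes, p-values and FDR were left unused. Here, edgeR 4.0.16 (R 4.3.3) was run on filterByExpr-filtered, TMM-scaled counts, using quasi-likelihood tests of genotype for all 24 libraries (library set as a term) and per set. P-values were adjusted by Benjamini-Hochberg over all tested genes. The SE is the size of the log2 fold change divided by the root of F. Paired ratios used log2 CPM (prior count 2) and all 369600 assignments within sets, two-sided (scipy 1.17.1). Correlations used 100000 permutations of centred values, not kept within sets. Coordinates and exon lengths follow GENCODE for GRCm38. The fit was tested on simulated counts.

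The members and lists were chosen with earlier results of these data known. Beside the members, the text names guidance, cAMP and activity genes that were called (at most the 5 with the smallest p per direction, or 2 where none was), *Rhbdf2*, *Omp*, *Gap43* and the 2 genes most like each member (mean of at least 1 CPM). *Pcdh8* at 8 weeks, *Ncam1*, *Bpifb9b*, *Th*, *Slc17a7* and *Gad1* were added after their values were seen. The labels do not say that replicate numbers pair the mice, and the main comparisons did not use them as pairs. In 42 pairs within groups, libraries differed by at least 12.05 chi-square per degree of freedom, so none was a duplicate. That the samples are separate mice comes from the labels. Tried as alternatives were DESeq2 1.42.0, other scaling (RLE), unfiltered genes, a replicate block, no set term, a sex term, males alone, a threshold of 0.05, a prior count of 0.5 and each library left out.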

Additional observations from a re-analysis of the deposited data

Results flagged for a closer look

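*Kirrel3* differed in direction between ages, since its log2 fold change was 0.52 at 8 weeks, with all 3 *iRhom2-/-* mice above the *WT* mean, and -0.27 at 10 weeks, with all 3 below it. *Efna5* did likewise, with 0.40 at 8 weeks (3 of 3 higher) and -0.39 at 10 weeks (3 of 3 lower), and at 5 or 30 weeks it was 0.27 (6 of 6 higher). The interaction of genotype with library set had an unadjusted p of 0.00204 for *Kirrel3* and of 3.91e-04 for *Efna5* in edgeR, and adjusted p-values of 0.225 and 0.186 over all genes, so neither difference passed. Of 20 groups of 6 libraries (10 members in each genotype at 5 or 30 weeks), none held a single library that stood out. The measure was its gap to the next value relative to the range. Such a gap can miss libraries that fall into clusters, as those of 5 or 30 weeks did for *Gap43*, *Sema3a* and *Efna5*. Groups of 3 libraries, which hold both libraries rich in *Bpifb9b*, were not tested.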

How the results depend on the processing

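Over the 24 libraries 410 genes were called, beside 234 at an adjusted p under 0.05, 824 with DESeq2, 132 without the set term, 242 with males alone, 106 with the libraries of 8 and 10 weeks alone and 269 with the bulb neuron covariate. Of the members 1 was called, beside 2 with DESeq2, 2 with the mature OSN covariate, and 0 without the set term or with 8 and 10 weeks alone. At 8 weeks the 962 calls became 270 at 0.05 and 2195 with DESeq2, and the 2 members became 0 at 0.05 and 3 with DESeq2. At 10 weeks the 37 calls became 289 with DESeq2 and 58 with no filter, and at 5 or 30 weeks the 198 became 51 at 0.05, 916 with DESeq2 and 119 with no filter. *Pcdh10* over the 24 libraries had a log2 fold change of -0.67 and an adjusted p of 0.314 without the set term.

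The labels do not say whether replicate numbers of 8 and 10 weeks pair the mice. Correlations between *WT* and *iRhom2-/-* mice ran from -0.003 to 0.317 for the same number and from -0.327 to 0.176 for different numbers. These ranges overlap and do not settle the question. With the replicate block, 41 genes and 0 members were called over those 12 libraries, and 1454 genes and 3 members at 8 weeks (*Pcdh10* -0.54, adjusted p = 0.0705). No paired analysis of all 24 libraries was possible because the columns carry no replicate numbers for the libraries of 5 or 30 weeks.

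With each library left out, genes called ran from 299 to 727 over the 24 libraries (727 without *iRhom2-/-* mouse 2 of 10 weeks), from 68 (without *iRhom2-/-* mouse 2) to 1300 at 8 weeks, from 13 to 105 at 10 weeks and from 52 to 241 at 5 or 30 weeks. Members called ran from 1 to 1, 0 to 2, 0 to 0 and 0 to 1.

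Signs turned for values near 0. Over the 24 libraries *Nrp1* was 0.0303 without both libraries rich in *Bpifb9b*, and *Sema3a* was -0.0894 with the block and -0.0874 with 8 and 10 weeks alone. Leaving out 1 library moved *Nrp1* from -0.0542 to 0.0048 over the 24 libraries and from -0.24 to 0.0202 at 8 weeks. At 8 weeks it moved *Nrp2* from -0.24 to 0.12, *Sema3f* from -0.0782 to 0.0105 and *Epha5* from -0.0446 to 0.50, and at 10 weeks *Sema3a* from -0.0761 to 0.13. At 5 or 30 weeks it moved *Plxna1* from -0.0080 to 0.16 and *Epha5* from -0.12 to 0.11, and it moved the *Epha5* over *Efna5* ratio from -0.0647 to 0.0882. The *Kirrel2* over *Kirrel3* ratio stayed between -0.64 and -0.52. Centred on the set alone, r was 0.0403 for *Nrp2* with *Sema3f*, 0.0174 for *Kirrel2* with *Kirrel3* and -0.36 for *Epha5* with *Efna5*, and over 8 and 10 weeks alone it was 0.41 for *Nrp1* with *Sema3a* and -0.24 for *Epha5* with *Efna5*, beside 0.59 and -0.52 over the 24 libraries, so that neither passed. *Kirrel2* with *Kirrel3* was 0.47 over the 24 and 0.63 over the 12, with adjusted p-values of 0.0378 and 0.149. The cause of these changes was not tested.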
